A study of Mus musculus with 30 samples.

Results

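The uterus of wild-type (WT) mice injected with insulin-like growth factor 1 (IGF1) was compared at 24 h and at 2 h. The arrays are those labelled WT, IGF1, 24 h and WT, IGF1, 2 h, 3 of each, and they make up 6 of the 30 arrays of the series. All animals were females of 21 days, before puberty, and each injection put 50 ug of IGF1 in PBS into the peritoneum. The 2 h tissue was taken 2 h after 1 injection. The 24 h tissue was taken 24 h after the first of 3 injections, given at 0, 8 and 16 h, and so 8 h after the last. The time since the first injection, the time since the last injection and the number of injections therefore cannot be told apart in this comparison. Vehicle-treated animals do not enter the difference, so it shows how the 2 times differ and not which of them departs from an untreated uterus. The series holds vehicle arrays at 24 h only, so the effect of the injection itself at 2 h was not tested. Comparators were KO females of the same age, in which exon 3 of the estrogen receptor alpha gene is deleted (Ex3aERKO), given IGF1 on the same schedule, and WT females given 1 injection of 250 ng of estradiol (E2) and examined 2 h or 24 h later, with 3 arrays in each group. RNA of the uterus was hybridised to Affymetrix whole-transcript arrays. The labels do not say that the 3 arrays of a group came from 3 animals, so the spread behind the p-values may be technical. That spread was pooled within the groups of all 30 arrays, vehicle arrays included, and the standard errors rest on it. They do not give the hour of day of collection either.

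IGF1 binds a tyrosine kinase receptor, IGF1R, which acts through insulin receptor substrates, PI3 kinase and AKT. Active AKT keeps FoxO transcription factors out of the nucleus and raises protein synthesis through mTOR, whereas a second branch through RAS and the MAP kinase ERK switches on immediate early genes within the first hours and then the phosphatases and adaptors that limit ERK. In the uterus, IGF1 made by the stroma under estrogen is a known mediator of epithelial growth.

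At 2 h the IGF1-treated WT uterus was higher in many genes known from early responses to growth factors. At 24 h it was higher in mitotic genes, in 12 of 28 FoxO target and atrophy genes and in some stromal matrix genes. Of 37 mitosis genes 31 were called higher, and 10 without replicate 2 of both times. The collagen and matrix list had 8 of 33 genes higher and 5 lower, with a median of 0.13. At 24 h immediate early transcription factors, MAP kinase feedback genes, angiogenic Vegfa, ribosome biogenesis factors, translation factors, amino acid transporters and cytosolic chaperones were lower, and Fbxo32, Sesn1, Sesn3, Igfbp5, Per3, Mki67 and fibrillar collagen genes were higher. Among 30142 genes tested with limma, 4375 (14.5%) were called at an adjusted p below 0.05, of which 2394 (7.94%) were higher and 1981 (6.57%) lower at 24 h. At least 2-fold, 671 genes (2.23%) were higher and 552 (1.83%) lower. The share of the calls that were higher was 54.7% on the values as deposited, 44.3% with every array centred on its median (1749 higher, 2198 lower) and 47% after quantile normalization (1944 higher, 2193 lower). The median difference over all genes was 0.00 as deposited and -0.06 with arrays centred. The arrays of the 2 groups did not overlap for 5591 genes that were higher at 24 h (18.5%) and for 4941 that were lower (16.4%). The 15 largest rises and the 15 largest falls were named only among such genes, so their lack of overlap follows from the naming rule. In whole uterus, fewer cells of a type and less RNA per cell cannot be told apart. Below, rose and fell mean called higher or lower at 24 h than at 2 h; values are deposited log2 levels in the order replicate 1, 2 and 3, differences are log2 with their standard error (SE), and folds are the same differences on a linear scale.

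The 6 arrays had medians of 6.17 to 6.29, and a floor for unexpressed genes, the 95th percentile of 1225 olfactory receptor genes, of 5.78 to 6.03. Arrays of one group correlated at 0.989 to 0.992 across genes. Replicate 2 of the 2 h group stood apart in markers of fat and of neutrophils. Adiponectin (Adipoq) was at 9.76, 12.23 and 8.80 at 2 h and at 7.41, 9.11 and 7.95 at 24 h. Ucp1, the uncoupling protein of brown and beige fat, was at 4.16, 12.47 and 3.83 at 2 h and at 3.34, 6.78 and 3.74 at 24 h. Both were highest in replicate 2 at each time, and in each case the 2 h array was the higher one. Across the 7 adipocyte markers measured, none was called, the median difference was -1.67, and the summed linear level ran from 1930 to 40100 at 2 h and from 797 to 5440 at 24 h. The neutrophil genes S100a8 (8.49, 14.26 and 8.28 at 2 h; 10.51, 9.63 and 7.64 at 24 h) and S100a9 (8.14, 14.25 and 7.39; 9.84, 9.56 and 8.25) also had their highest level in replicate 2 at 2 h. The neutrophil sum ran from 732 to 39600 at 2 h. Where the count of a list changed by more than 1.5 times without this array, or without replicate 2 of both times, the paragraph on that list gives it.

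**Figure D1:**
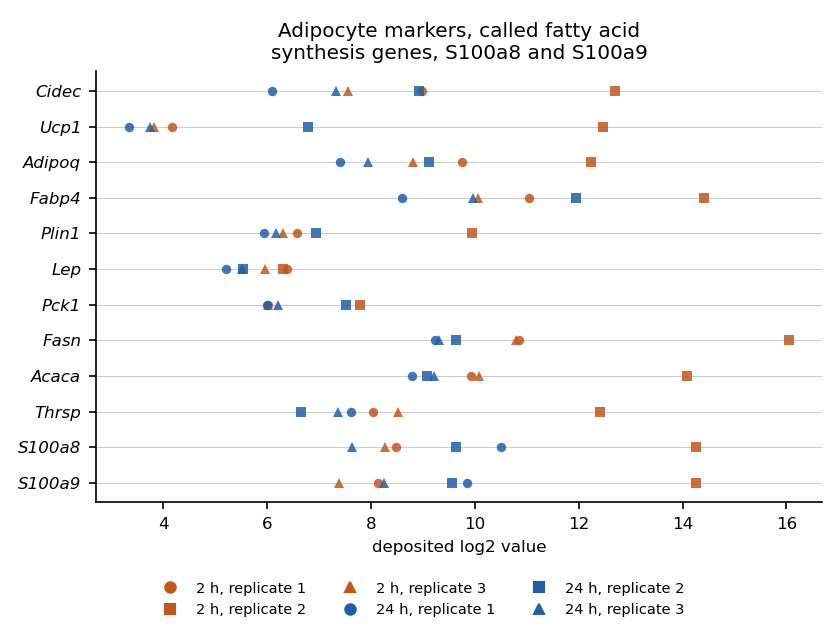
Deposited log2 level (horizontal axis) of the 7 adipocyte markers, 3 fatty acid synthesis genes, S100a8 and S100a9; each point is 1 WT IGF1 array, orange at 2 h and blue at 24 h, with a circle, square and triangle for replicates 1, 2 and 3. The orange square, replicate 2 at 2 h, is the highest array for Adipoq (12.23), Ucp1 (12.47), Fasn (16.05) and S100a8 (14.26).

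The uterus was checked against markers of its own cells. Uterine epithelial markers had a mean level of 9.26 to 9.46 at 2 h and 9.27 to 9.39 at 24 h, and 1 of 13 rose, or none without replicate 2 of both times. Over all genes 7.94% rose. Stromal markers were at 11.86, 11.34 and 11.90 at 2 h and at 12.56, 12.38 and 12.51 at 24 h, and 4 of 11 rose. The smooth muscle markers were at 13.22, 12.54 and 13.08 and at 13.49, 13.17 and 13.53, and 4 of 10 rose, none of them without replicate 2 of the 2 h group. That array was the lowest of the 6 for stromal and for smooth muscle markers. The part of cell composition in the differences below was not tested.

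**Figure D2:**
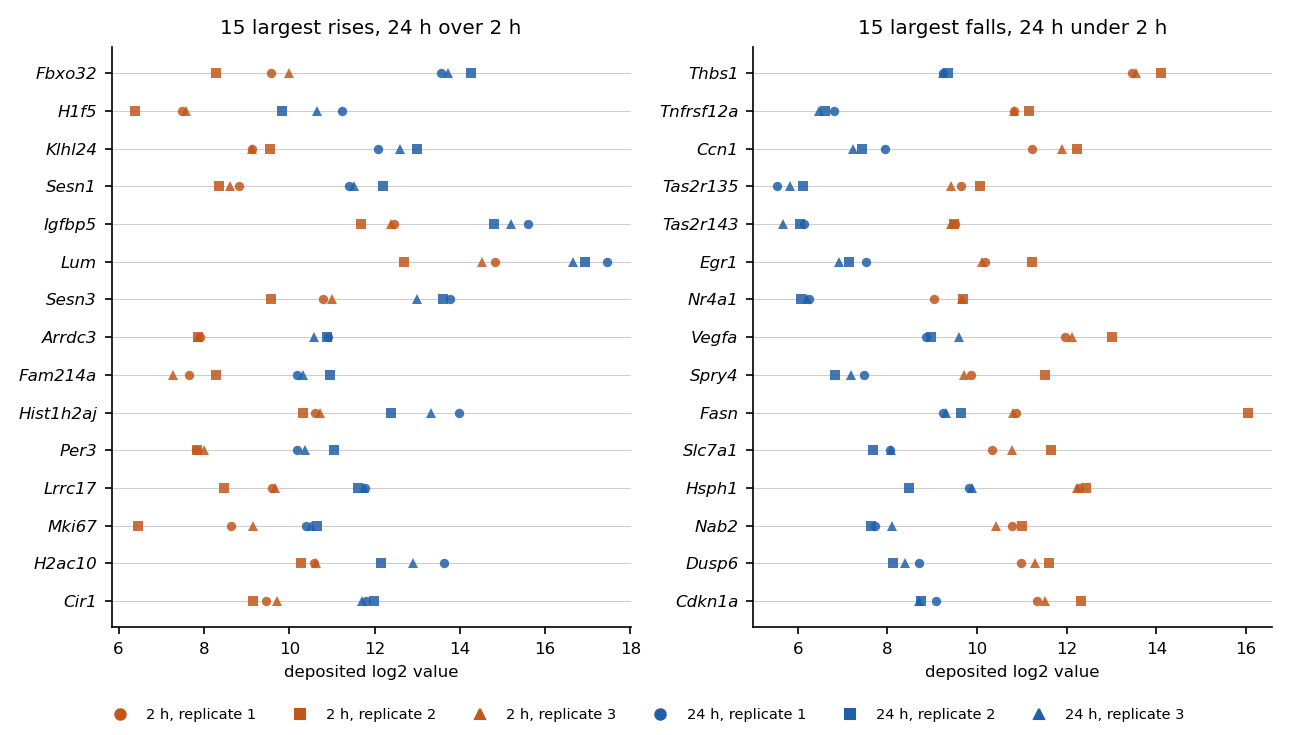
Deposited log2 level (horizontal axis) of the 15 genes that rose most (left) and the 15 that fell most (right) under the naming rule; each point is 1 array, orange at 2 h and blue at 24 h, with a circle, square and triangle for replicates 1, 2 and 3. Fbxo32 (difference 4.56) and Thbs1 (-4.43) head the panels, and no gene shown has overlapping groups, which the rule required.

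The members of the lists below did not all move alike. From the called members of each of 5 lists, 1 gene was picked for a large difference and for letters bound by the factor known for that list. Holding the motif was therefore a condition of the choice for the 5 promoters shown. They are RefSeq windows of build GRCm38.p6, 250 bases before to 50 after the annotated start, printed 5′ to 3′ on the strand of the gene, and the capitals mark the matches of the motifs named for that gene, not those of the other motifs searched. Sesn1, at chr10:41810324-41810623 on the plus strand, holds a FoxO site; Mki67, at chr7:135716330-135716629 on the minus strand, holds the cell cycle homology region (CHR) and CCAAT boxes of mitotic promoters. Mcm6, at chr1:128359656-128359955 on the minus strand, holds 2 E2F sites, Hsph1, at chr5:149636287-149636586 on the minus strand, holds a heat shock element, and Ltv1, at chr10:13193088-13193387 on the minus strand, holds a MYC-type E-box.
Sesn1: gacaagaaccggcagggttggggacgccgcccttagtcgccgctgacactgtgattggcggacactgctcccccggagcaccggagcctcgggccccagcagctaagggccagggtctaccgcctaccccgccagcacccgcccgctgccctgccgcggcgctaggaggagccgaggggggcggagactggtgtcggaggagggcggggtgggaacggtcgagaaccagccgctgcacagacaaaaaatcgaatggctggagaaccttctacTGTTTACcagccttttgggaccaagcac
Mki67: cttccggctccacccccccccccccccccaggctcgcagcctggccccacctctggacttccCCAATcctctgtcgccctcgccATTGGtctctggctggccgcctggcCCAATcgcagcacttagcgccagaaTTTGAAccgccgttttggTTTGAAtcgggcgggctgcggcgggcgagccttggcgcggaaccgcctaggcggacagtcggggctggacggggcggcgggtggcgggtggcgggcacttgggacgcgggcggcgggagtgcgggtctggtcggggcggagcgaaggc
Mcm6: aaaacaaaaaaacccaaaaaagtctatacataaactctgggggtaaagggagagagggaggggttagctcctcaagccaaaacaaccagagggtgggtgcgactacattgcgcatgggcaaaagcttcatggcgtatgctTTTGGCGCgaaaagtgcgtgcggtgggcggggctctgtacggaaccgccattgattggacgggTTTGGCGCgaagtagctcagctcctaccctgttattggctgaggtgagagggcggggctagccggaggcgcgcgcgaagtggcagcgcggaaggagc
Hsph1: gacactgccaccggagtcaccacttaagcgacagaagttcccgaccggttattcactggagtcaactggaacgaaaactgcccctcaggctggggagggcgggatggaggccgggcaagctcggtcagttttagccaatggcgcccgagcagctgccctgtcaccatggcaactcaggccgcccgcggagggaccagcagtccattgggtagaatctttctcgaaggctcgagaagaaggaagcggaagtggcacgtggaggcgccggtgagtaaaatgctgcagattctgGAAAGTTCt
Ltv1: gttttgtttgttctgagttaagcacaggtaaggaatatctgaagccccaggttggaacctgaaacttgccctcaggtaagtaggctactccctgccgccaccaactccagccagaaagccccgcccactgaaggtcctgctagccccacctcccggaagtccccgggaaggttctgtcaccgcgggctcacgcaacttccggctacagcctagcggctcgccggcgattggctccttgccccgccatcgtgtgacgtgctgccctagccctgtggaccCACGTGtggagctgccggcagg
The motifs were searched on both strands as GTAAACA for FoxO, TTTGAA or TTTAAA for CHR, CCAAT, TTTGGCGC or TTTCCCGC for E2F, CACGTG for the E-box and GAANNTTC for the heat shock element, and a CHR and a heat shock match can share letters. A promoter was held for 17970 of the 30142 genes. The CHR was in 25 of 31 mitosis promoters (80.6%) against 25.4% of all promoters, and CCAAT in 74.2% against 38.4%. The E2F site was in 11 of 35 replication promoters (31.4%, all promoters 2.1%), the heat shock element in 8 of 17 chaperone promoters (47.1%, all 7.38%), and the E-box in 9 of 27 ribosome biogenesis promoters (33.3%, all 7.98%). The FoxO site was in 4 of 24 promoters of the FoxO list (16.7%, all 3.08%). Among genes called at least 2-fold, the FoxO site was in 6.39% of 438 promoters of rising genes and in 1.63% of 367 promoters of falling genes, and the E-box in 10.3% and 18%. The CHR was in 32.6% and 16.1% of them. These are descriptions of the letters in the windows.

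Many genes known from early responses to growth factors were lower at 24 h. Of 27 immediate early transcription factors measured, 18 fell and none rose, with a list median of -1.06 against 0.00 for all genes; Egr1 and Nr4a1 differed by about 3.3 on the log2 scale, and the transcripts of Srf, Ier2, Egr2, Fosl2, Atf3, Klf4, Fos and Myc also fell. Of 16 MAP kinase feedback genes, which dampen receptor and ERK signals, 9 fell and 1 rose, with a median of -0.67.

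Egr1, a zinc finger factor induced through ERK and SRF, was at 10.17, 11.22 and 10.10 at 2 h and at 7.53, 7.14 and 6.93 at 24 h. All 3 arrays at 2 h were above all 3 at 24 h, and the difference was -3.30 ± 0.57 (SE, n = 3 and 3, adjusted p = 0.000278), a 9.83-fold fall. Nr4a1, an orphan nuclear receptor of the same early class, was at 9.04, 9.68 and 9.66 and at 6.26, 6.07 and 6.20, close to the floor. Its difference was large relative to the spread pooled over all groups (-3.29 ± 0.28, adjusted p = 2.97e-07, 9.76-fold). Nab2, the corepressor that EGR proteins induce and that holds them back, was at 10.78, 10.99 and 10.41 and at 7.73, 7.63 and 8.10 (-2.91 ± 0.35, adjusted p = 9.77e-06).

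Srf, the factor that reads ERK and actin signals at serum response elements, was at 11.60, 11.47 and 11.67 at 2 h and at 8.93, 8.89 and 9.49 at 24 h (-2.48 ± 0.28, adjusted p = 4.44e-06). Ier2, an early nuclear protein, fell by 2.39 ± 0.38. Fos was dim at both times in these IGF1 arrays, at 6.72, 6.37 and 6.18 and then at 5.01, 5.26 and 5.05, below the floor, so that its fall was at least 1.48-fold. Myc, which drives ribosome and metabolic genes, was brighter at both times, at 11.21, 11.66 and 11.09 and at 10.47, 9.80 and 10.12 (-1.19 ± 0.27, adjusted p = 0.00306). The groups of Fos and of Myc did not overlap.

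Among the feedback genes, Dusp6, the ERK-specific phosphatase, was at 10.98, 11.61 and 11.29 at 2 h and at 8.71, 8.13 and 8.39 at 24 h (-2.88 ± 0.39, adjusted p = 3.04e-05, 7.38-fold). Spry4, a Sprouty inhibitor of receptor signalling, was at 9.86, 11.52 and 9.70 and at 7.48, 6.82 and 7.19. Replicate 2 at 2 h was its highest array, and its difference of -3.19 ± 0.65 (adjusted p = 0.00139) was -2.44 without replicate 2 of both times, where it was no longer called (adjusted p = 0.0574). Errfi1, an inhibitor of EGF receptors, fell by 1.95 ± 0.33 and Dusp1, a nuclear MAP kinase phosphatase, fell by 1.52 ± 0.21. Dusp10, a phosphatase for JNK and p38, rose by 0.62 ± 0.21 (adjusted p = 0.042), but was not called when any 1 array other than replicate 2 at 24 h was left out.

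The 3 largest falls among the named genes lay in the matricellular list. Of 20 matricellular and provisional matrix genes, 6 fell and none rose, beside 6.57% of all genes that fell and 7.94% that rose. Thbs1, thrombospondin 1, an adhesive glycoprotein that activates TGF-beta, was at 13.45, 14.10 and 13.55 at 2 h and at 9.23, 9.34 and 9.23 at 24 h. The 2 groups were separated by more than 4 log2 units (-4.43 ± 0.44, adjusted p = 1.26e-06, 21.6-fold). Tnfrsf12a, the receptor of the cytokine TWEAK, was at 10.83, 11.15 and 10.83 and at 6.81, 6.61 and 6.48 (-4.31 ± 0.57, adjusted p = 2.45e-05, 19.8-fold). Ccn1, a matrix protein induced by growth factors and by YAP and SRF, was at 11.22, 12.22 and 11.90 and at 7.95, 7.43 and 7.24 (-4.24 ± 0.40, adjusted p = 8.31e-07, 18.9-fold). All 3 genes were called under each of the 17 alternative settings tried. Hbegf, an EGF family ligand, fell by 1.45 ± 0.27, and was 1 of 2 of 11 EGF family genes that fell, the other being Nrg1 (-0.87 ± 0.23), which was not called without replicate 1 at 2 h, replicate 2 at 24 h or replicate 2 of both times.

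Vegfa, the main endothelial growth factor, was at 11.96, 13.00 and 12.11 at 2 h and at 8.85, 8.98 and 9.60 at 24 h (-3.21 ± 0.46, adjusted p = 4.43e-05, 9.24-fold). The groups were more than 2 log2 units apart at their nearest arrays. The angiogenic list did not move as one, since 5 of its 24 members rose and 5 fell. Over all genes 7.94% rose and 6.57% fell. Aplnr, the apelin receptor of sprouting endothelium, rose from 7.20, 6.79 and 6.93 to 9.05, 8.95 and 9.04 (2.04 ± 0.28, adjusted p = 3.33e-05), and the lymphangiogenic factors Vegfd (1.89 ± 0.33) and Vegfc (1.08 ± 0.20) rose as well.

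Beside 6.57% of all genes that fell and 7.94% that rose, 4 of 25 chemokine and acute inflammation genes fell and none rose. These were the monocyte attractants Ccl2 (-2.49 ± 0.62), Ccl12 (-1.98 ± 0.50) and Ccl7 (-1.46 ± 0.46), and Cxcl14 (-1.37 ± 0.32), and none of the 4 was called without replicate 2 of both times, nor Ccl7 without any 1 of the 6 arrays. In the LIF, IL6 and STAT3 list 3 of 14 fell, Il6ra (-1.38 ± 0.13), Stat3 (-0.80 ± 0.19) and Clcf1 (-0.65 ± 0.22), the last not called when any 1 of the 6 arrays was left out. Of 18 glucocorticoid-induced genes 6 fell and none rose (1 rose without replicate 2 at 2 h). Zbtb16, a transcription factor gene of that list, was at 8.36, 10.92 and 8.30 at 2 h and at 7.01, 7.10 and 6.88 at 24 h (-2.20 ± 0.60, adjusted p = 0.0138), with replicate 2 at 2 h the highest array, without which it was not called (-1.34).

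Many known targets of FoxO transcription factors rose. Of 28 FoxO target and atrophy genes measured, 12 rose and 1 fell, with a list median of 0.63, and 5 of the 15 largest rises under the naming rule lay in this list, which was chosen with earlier results of these data known. The list holds the ubiquitin ligase Fbxo32, the stress proteins Sesn1 and Sesn3, the arrestin Arrdc3, the ubiquitin ligase adaptor Klhl24, and the insulin receptor substrate Irs2.

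Fbxo32, also called atrogin-1, the ubiquitin ligase of muscle wasting and a classical FoxO target, was at 9.58, 8.29 and 10 at 2 h and at 13.56, 14.26 and 13.71 at 24 h. All 24 h arrays lay above all 2 h arrays by more than 3 log2 units, and the difference of 4.56 ± 0.81 (adjusted p = 0.000372) was the largest rise of any gene named under the rule used here, 23.5-fold. Klhl24 was at 9.13, 9.54 and 9.12 and at 12.09, 13.00 and 12.59 (3.30 ± 0.63, adjusted p = 0.000775, 9.83-fold). Arrdc3, which sorts receptors for degradation, was at 7.91, 7.86 and 7.86 and at 10.90, 10.88 and 10.58 (2.91 ± 0.50, adjusted p = 0.00031, 7.53-fold). Neither Klhl24 nor Arrdc3 had overlapping groups, as the naming rule required. Among the largest rises outside the lists were Fam214a (2.75 ± 0.39, adjusted p = 4.23e-05), Lrrc17, a secreted leucine-rich repeat protein gene (2.46 ± 0.45), and Cir1, a corepressor gene (2.40 ± 0.45).

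Sesn1, a sestrin that restrains mTORC1 when amino acids are scarce, was at 8.83, 8.35 and 8.62 at 2 h and at 11.41, 12.20 and 11.51 at 24 h (3.10 ± 0.52, adjusted p = 0.000238, 8.59-fold). Its promoter holds the FoxO site shown above, 22 bases after the start. Sesn3, the sestrin most tied to FoxO, was at 10.80, 9.57 and 11.01 and at 13.78, 13.60 and 12.99 (2.99 ± 0.44, adjusted p = 6.64e-05, 7.94-fold). For both sestrins replicate 2 was the lowest array at 2 h, and the groups did not overlap, as the naming rule required.

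The other FoxO list genes that rose were Trp53inp1, an autophagy factor (2.32 ± 0.52), Irs2 (1.70 ± 0.51), Ccng2, an unconventional cyclin of quiescent cells (1.44 ± 0.26), Gabarapl1, an autophagosome protein (1.37 ± 0.43), Cdkn1b, the CDK inhibitor p27 (1.33 ± 0.31), Pik3ip1, an inhibitor of PI3 kinase (1.14 ± 0.21), and Foxo4 (0.59 ± 0.15). Gadd45a, a growth arrest gene, fell by 1.03 ± 0.24 but was not called without replicate 2 of both times. The other 15 members were not called. Among these Pdk4, which shuts pyruvate out of the citric acid cycle, differed by 1.60 with an adjusted p of 0.149 (2.83 and called without replicate 2 at 2 h), Txnip, which blocks glucose uptake, by 1.10 (adjusted p = 0.104), Foxo3 by 0.66, Foxo1 by -0.15, Bcl6 by -0.81 and Ddit4 by -0.71. The number that rose was 12 without replicate 2 at 2 h and 9 without replicate 2 of both times.

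**Figure D3:**
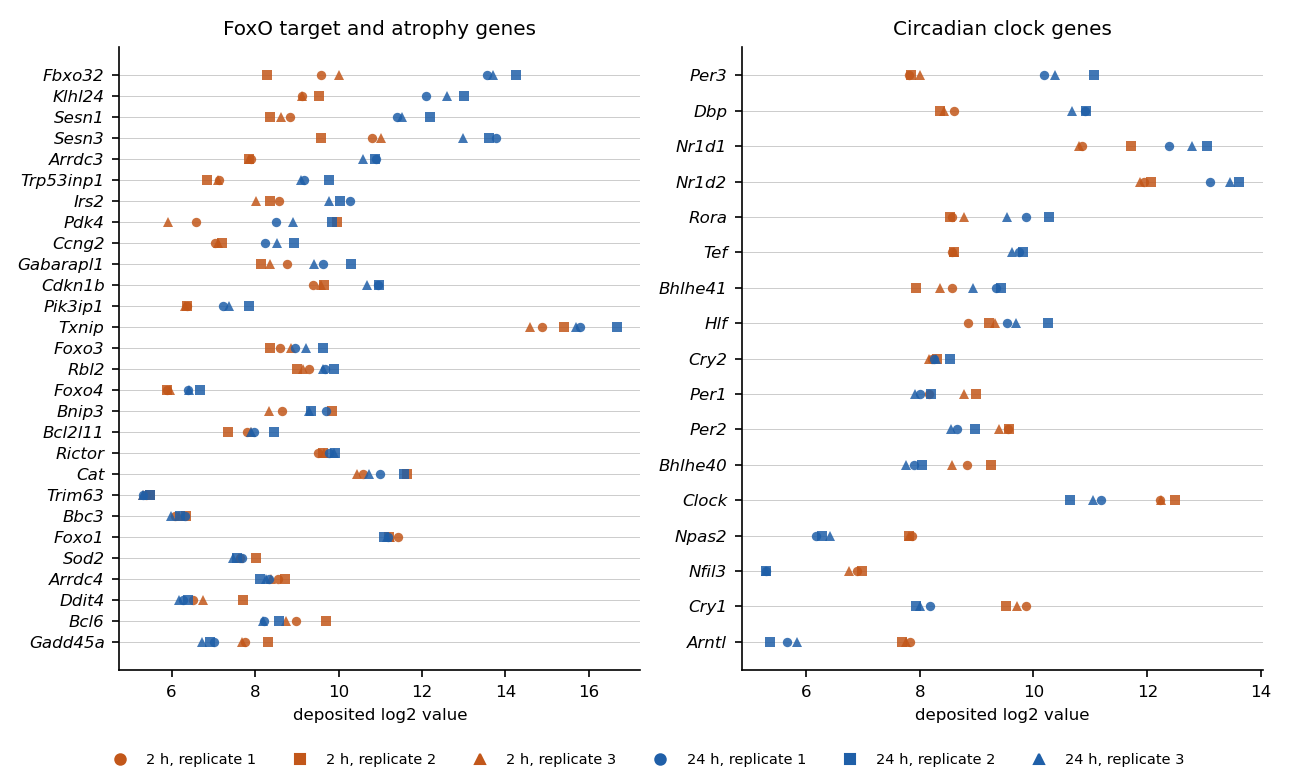
Deposited log2 level (horizontal axes) of all 28 measured FoxO list genes (left) and all 17 clock genes (right), ordered by their difference; each point is 1 WT IGF1 array, orange at 2 h and blue at 24 h, with a circle, square and triangle for replicates 1, 2 and 3. The blue points lie to the right for Fbxo32 (difference 4.56) and Per3 (2.65) and to the left for Gadd45a (-1.03) and Arntl (-2.13).

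In the IGF axis itself 4 of 20 genes rose and 1 fell, with a median of 0.07. Over all genes 7.94% rose and 6.57% fell. Igfbp5, a binding protein that holds IGF1 in the matrix, was at 12.46, 11.69 and 12.38 at 2 h and at 15.59, 14.79 and 15.19 at 24 h. Its groups did not overlap, as the naming rule required (3.01 ± 0.55, adjusted p = 0.000515, 8.07-fold). Stc1, which inhibits cleavage of IGF binding proteins, rose by 1.79 ± 0.48. Irs2, the receptor substrate, was at 8.58, 8.36 and 8.01 and at 10.27, 10.04 and 9.76 (1.70 ± 0.51, adjusted p = 0.0256), and the adaptor Grb14 rose by 0.68 ± 0.21. Without replicate 2 at 2 h only 1 of the 4 was still called, and Irs2 (1.73, adjusted p = 0.0636) and Stc1 (1.65, adjusted p = 0.0539) missed the threshold. Irs2 also missed it without replicate 3 at 2 h, or without replicate 1 or 2 at 24 h, each of which left 2 genes of the list called higher. Grb10, an adaptor that dampens the receptor, was at 9.95, 10.28 and 10.23 and at 9.45, 9.34 and 9.24 (-0.81 ± 0.18, adjusted p = 0.00248). The ligand Igf1 (-0.04 ± 0.28), its receptor Igf1r (0.03) and the binding proteins Igfbp3 (0.08) and Igfbp4 (0.36) were not called, nor were the estrogen receptor gene Esr1 (0.45, adjusted p = 0.14), the progesterone receptor gene Pgr (0.03) or Greb1, an estrogen-induced cofactor (-0.25, adjusted p = 0.268). Insr had no probe set of its own.

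Circadian clock genes differed in opposite directions between the times. Of 17 measured, 6 rose and 6 fell, and the labels do not give the hour of day of either collection, so the hour of day and the time after IGF1 cannot be told apart. Dbp, a clock output factor, was at 8.61, 8.36 and 8.42 at 2 h and at 10.90, 10.93 and 10.67 at 24 h (2.37 ± 0.24, adjusted p = 1.26e-06). Per3, a period protein, was at 7.82, 7.84 and 8.00 and at 10.18, 11.06 and 10.38 (2.65 ± 0.37, adjusted p = 3.72e-05, 6.29-fold). Dbp was steady within each time, while Per3 ranged from 10.18 to 11.06 at 24 h. Neither gene overlapped between times, which the naming rule required of Per3. The repressors Nr1d1 (1.62 ± 0.43) and Nr1d2 (1.43 ± 0.33), their opponent Rora (1.27 ± 0.40) and Tef (1.14 ± 0.18) rose with them.

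Arntl, the activator BMAL1, was at 7.83, 7.69 and 7.75 at 2 h and at 5.67, 5.36 and 5.85 at 24 h, below the floor. It fell at least 3.67-fold (-2.13 ± 0.18, adjusted p = 2.97e-07). The repressor Cry1 (-1.65 ± 0.17), Nfil3, which competes with Dbp (-1.59 ± 0.14), the activators Npas2 (-1.54 ± 0.19) and Clock (-1.36 ± 0.18), and Bhlhe40 (-0.98 ± 0.24) also fell. Per1 (-0.60) and Per2 (-0.78, adjusted p = 0.0753) were not called.

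Genes for building ribosomes and for starting translation fell. Of 31 ribosome biogenesis genes 22 fell and none rose (median -0.77), of 15 translation initiation factors 11 fell and none rose (median -0.88), and of 17 aminoacyl-tRNA synthetases 9 fell and 1 rose (median -0.85). Ddx21, a nucleolar helicase that couples RNA polymerase I and ribosome processing, was at 12.32, 12.43 and 12.15 at 2 h and at 9.73, 8.76 and 10.03 at 24 h. Its 2 h arrays agreed closely, while replicate 2 at 24 h was the lowest, and the difference was -2.79 ± 0.42 (adjusted p = 7.07e-05, 6.94-fold). Ltv1, which matures the small subunit, was at 11.73, 11.66 and 11.68 and at 9.69, 8.85 and 10.08 (-2.15 ± 0.41, adjusted p = 0.000728, 4.45-fold). The processome subunit Utp4 fell by 1.99 ± 0.28 and the nucleolar chaperone Nolc1 by 1.94 ± 0.27.

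Eif4e, the cap-binding protein, was at 12.26, 12.38 and 12.49 at 2 h and at 11.36, 10.42 and 11.18 at 24 h (-1.39 ± 0.25, adjusted p = 0.000462). Replicate 2 was again the lowest at 24 h. Eif2b3, a part of the exchange factor that recharges eIF2, fell by 1.30 ± 0.19, Eif2s2, the beta subunit of eIF2, by 1.28 ± 0.27, and Eif4ebp1, the mTOR-controlled repressor of Eif4e, by 1.17 ± 0.39, the last not called without replicate 2 at 2 h (-0.45) or without any 1 of the 24 h arrays. Of the initiation factors, 8 fell without replicate 2 at 2 h and 4 without replicate 2 of both times.

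Amino acid supply and the ATF4 programme moved the same way. Of 20 amino acid transport and serine-ATF4 genes 14 fell and none rose (median -1.10). Slc7a1, the transporter of arginine and lysine, was at 10.34, 11.65 and 10.77 at 2 h and at 8.06, 7.67 and 8.09 at 24 h (-2.98 ± 0.43, adjusted p = 5.32e-05, 7.91-fold). Asns, asparagine synthetase, was at 9.10, 11.10 and 9.06 and at 7.34, 7.06 and 7.52 (-2.45 ± 0.58, adjusted p = 0.00516). Replicate 2 at 2 h was the highest array of both genes, and the groups did not overlap. Mthfd2, a mitochondrial folate enzyme, fell by 2.51 ± 0.50, and Chac1, which degrades glutathione, fell at least 3.4-fold but was not called without replicate 2 at 2 h. The synthetases Iars (-2.07 ± 0.34), Yars (-2.07 ± 0.34), Tars (-2.02 ± 0.43) and Cars (-1.99 ± 0.44) fell, while Qars rose by 0.85. Without replicate 2 at 2 h the number that fell was 8 of the ATF4 list and 5 of the synthetases, and without replicate 2 of both times it was 3 and 2.

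Chaperone genes fell in the cytosol and in part in the endoplasmic reticulum (ER). Of 20 cytosolic heat shock genes 11 fell and none rose, and of 20 ER chaperone and unfolded protein response genes 8 fell and 1 rose. Hsph1, a large HSP70-type exchange factor, was at 12.27, 12.43 and 12.23 at 2 h and at 9.81, 8.47 and 9.88 at 24 h. The groups were separated by more than 2 log2 units (-2.93 ± 0.30, adjusted p = 1.77e-06, 7.61-fold). Hsp90aa1, the inducible HSP90, was at 15.34, 15.62 and 15.51 and at 14.54, 13.68 and 14.48 (-1.26 ± 0.18, adjusted p = 4.65e-05), and the cochaperone Stip1 (-1.41 ± 0.25) and Hspa4 (-1.25 ± 0.19) fell too. In the ER list the stress factors Ddit3 (-2.05 ± 0.38) and Atf4 (-1.92 ± 0.37), the chaperone Hspa5 (-1.43 ± 0.29) and Creld2 (-1.32 ± 0.30) fell, and the disulfide isomerase P4hb rose by 1.11 ± 0.26. Of the cytosolic list 7 genes fell without replicate 2 at 2 h, 7 without replicate 2 at 24 h and 5 without both, and of the ER list 5 fell without both.

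**Figure D4:**
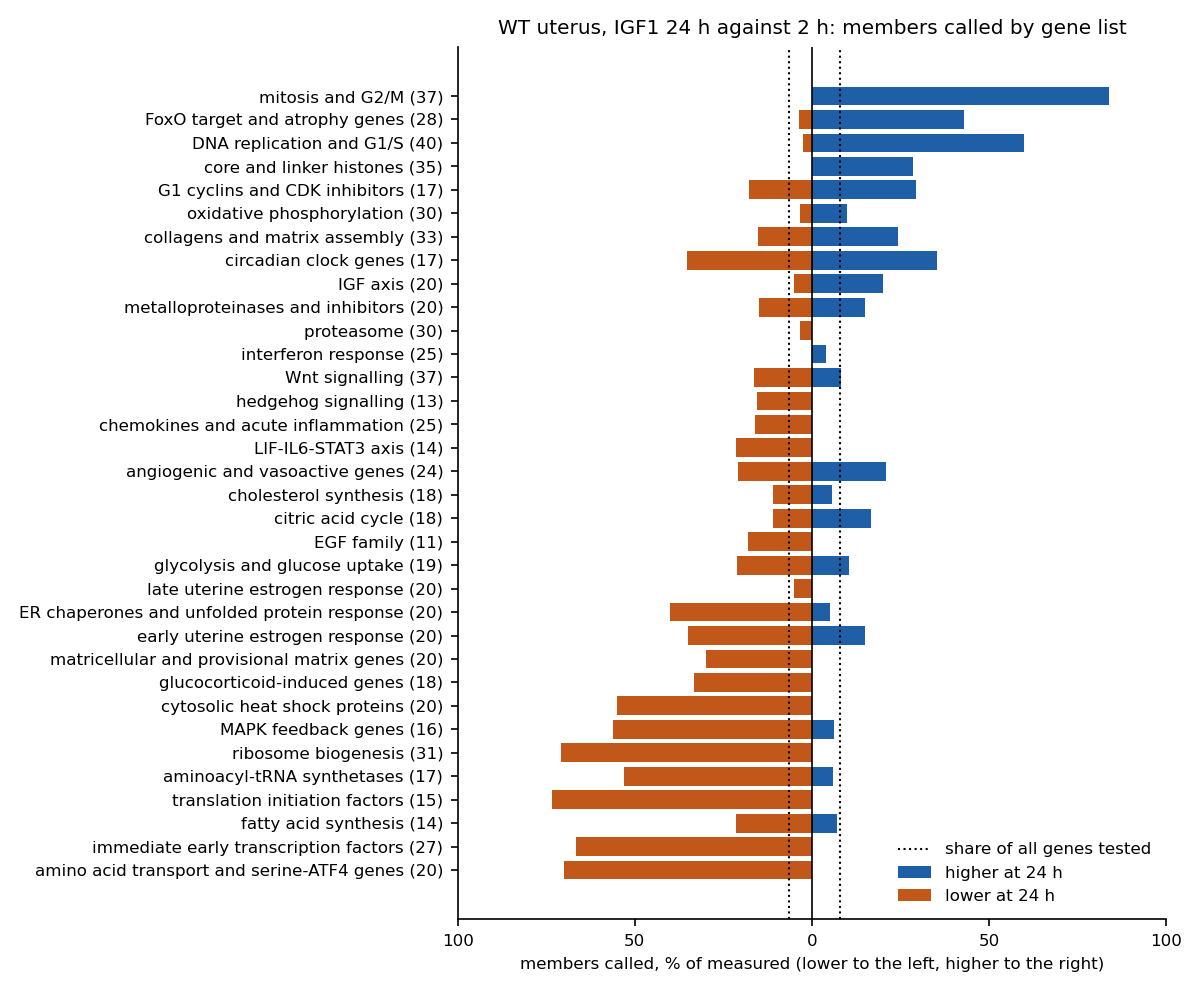
Percentage of the measured genes of each list (number in brackets) that rose (blue, to the right) or fell (orange, to the left) between 2 h and 24 h after IGF1 in WT uterus, with bars starting at 0 in both directions and dotted lines at the shares over all genes, 7.94% and 6.57%. Mitosis genes (31 of 37) and replication genes (24 of 40) extend furthest to the right, and initiation factors (11 of 15), ribosome biogenesis (22 of 31) and ATF4 genes (14 of 20) furthest to the left.

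Cell division genes rose. Of 37 mitosis and G2/M genes 31 rose and none fell (median 1.24), and of 40 DNA replication and G1/S genes 24 rose and 1 fell (median 0.49). The mitosis list as a whole had a mean level of 6.54, 5.90 and 6.88 at 2 h and of 7.53, 7.63 and 7.67 at 24 h. Replicate 2 was the lowest of the 2 h arrays, and the 2 groups did not overlap. Without that array 18 of the 37 genes rose, and without replicate 2 of both times 10 did.

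Mki67, the proliferation antigen Ki-67 that coats mitotic chromosomes, was at 8.64, 6.46 and 9.15 at 2 h and at 10.39, 10.65 and 10.51 at 24 h (2.44 ± 0.59, adjusted p = 0.0055, 5.42-fold). The 24 h arrays lay close together and the 2 h arrays did not, and without replicate 2 at 2 h the difference was 1.63 (adjusted p = 0.0638). Top2a, the topoisomerase that untangles sister chromatids, was at 8.79, 6.69 and 9.61 and at 10.51, 10.63 and 10.99 (2.35 ± 0.57, adjusted p = 0.00604), and without that array the difference was 1.51 (adjusted p = 0.0699). Ndc80, a kinetochore protein singled out after its values were seen because its 2 h arrays differed less, was at 6.0, 5.85 and 6.54 and at 8.14, 7.83 and 8.04 (1.88 ± 0.23, adjusted p = 1.25e-05). The mitotic cyclin Ccnb2 (1.91 ± 0.44) and the spindle motor Kif11 (1.90 ± 0.39) rose as well.

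Mcm6, a subunit of the replicative helicase, was at 9.18, 8.45 and 9.20 at 2 h and at 10.47, 9.60 and 10.79 at 24 h (1.34 ± 0.22, adjusted p = 0.000211, 2.54-fold). Its groups did not overlap, with replicate 2 the lowest array at both times. The ligase Lig1 (1.18 ± 0.19) and the helicase subunit Mcm3 (1.16 ± 0.22) rose. Tk1, the thymidine salvage kinase, was at 8.65, 9.0 and 8.56 and at 7.35, 7.53 and 7.59 and was the replication list gene that fell (-1.24 ± 0.17, adjusted p = 3.57e-05). When the fit held only the groups compared, 12 replication genes rose in place of 24.

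In the G1 list 5 of 17 genes rose and 3 fell, and both directions held inhibitors. Cdkn1a, the CDK inhibitor p21, was at 11.34, 12.31 and 11.51 at 2 h and at 9.08, 8.74 and 8.71 at 24 h (-2.88 ± 0.50, adjusted p = 0.000321, 7.35-fold). Cdkn1b, the inhibitor p27, was at 9.39, 9.64 and 9.59 and at 10.95, 10.98 and 10.69 (1.33 ± 0.31, adjusted p = 0.00441). No array of either gene overlapped with the other time. The retinoblastoma gene Rb1 rose by 1.48 ± 0.36 on its brightest probe set. With probe sets averaged its difference was 0.44 and was not called (limma, adjusted p = 0.185). The cyclin Ccnd2 fell by 1.27 ± 0.26. Without replicate 2 of both times 3 genes of the list rose and 1 fell.

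Of 35 core and linker histone genes 10 rose and none fell, 6 of them without replicate 2 at 2 h and 6 without replicate 1 at 24 h. H1f5, a linker histone of dividing cells, was at 7.48, 6.39 and 7.57 at 2 h and at 11.23, 9.83 and 10.65 at 24 h (3.43 ± 0.60, adjusted p = 0.000323, 10.8-fold). Its groups did not overlap, as the naming rule required. The H2A genes Hist1h2aj (2.67 ± 0.55), H2ac10 (2.40 ± 0.44) and H2ac15 (1.96 ± 0.41) rose with it. Histone genes are close in sequence and may share probes, so these values are not assigned to single genes with certainty.

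Of 33 collagen and matrix assembly genes 8 rose and 5 fell, with a list median of 0.13, and fibrillar collagens were among those that rose. Over all genes 7.94% rose and 6.57% fell. Lum, the keratan sulfate proteoglycan lumican of uterine stroma, was at 14.83, 12.68 and 14.52 at 2 h and at 17.45, 16.93 and 16.66 at 24 h (3.01 ± 0.63, adjusted p = 0.00176, 8.03-fold). Replicate 2 was the lowest at 2 h. Col3a1, a fibrillar collagen, was at 10.09, 9.24 and 10.39 and at 12.00, 11.82 and 12.27 (2.12 ± 0.30, adjusted p = 4.28e-05). Col1a2 rose by 1.98 ± 0.23 and fibronectin, Fn1, by 1.66 ± 0.48, which was not called without replicate 2 at 2 h, or replicate 2 or 3 at 24 h. P4ha2, a collagen prolyl hydroxylase, fell by 1.14 ± 0.22. Lum, Col3a1 and Col1a2 are also on the stromal marker list, on which 4 of 11 genes rose. Without replicate 2 of both times 5 genes of the collagen list rose and 3 fell, and without replicate 1 at 24 h 3 fell. Of 20 metalloproteinases and inhibitors 3 rose and 3 fell (1 and 1 without replicate 2 of both times), among them the aggrecanase Adamts5 (1.12 ± 0.23), the sheddase Adam19 (-1.45 ± 0.23), Adamts1 (-1.0 ± 0.27) and the inhibitor Timp3 (-0.98 ± 0.31). Timp3 was not called without any 1 of the 6 arrays and Adamts1 not without replicate 3 at 2 h or replicate 2 at 24 h.

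Of 37 Wnt genes 3 rose and 6 fell, beside 7.94% of all genes that rose and 6.57% that fell. Without replicate 2 at 2 h, or without replicate 2 of both times, 1 Wnt gene rose and 5 fell. Rspo3, a secreted enhancer of Wnt signals, rose by 2.33 ± 0.61, but its adjusted p was 0.067 without replicate 2 at 2 h. Nkd2, a Wnt feedback inhibitor, was at 9.31, 9.33 and 9.84 at 2 h and at 7.94, 7.42 and 8.05 at 24 h (-1.69 ± 0.21, adjusted p = 1.37e-05), and the feedback genes Nkd1 (-1.23 ± 0.26) and Axin2 (-1.05 ± 0.19) fell with it. In the hedgehog list, 2 of 13 genes fell, the target Gli1 (-1.20 ± 0.24) and Gli2 (-0.61 ± 0.18). Gli2 was not called without replicate 1 or 3 at 2 h or replicate 2 or 3 at 24 h, nor when the fit held only the groups compared (adjusted p = 0.156).

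In the lists of energy and lipid genes a minority of members was called, beside 7.94% of all genes that rose and 6.57% that fell. Of 18 cholesterol synthesis genes 1 rose and 2 fell, of 30 oxidative phosphorylation genes 3 rose and 1 fell, of 18 citric acid cycle genes 3 rose and 2 fell, of 19 glycolysis and glucose uptake genes 2 rose and 4 fell, and of 30 proteasome genes 1 fell. Of 14 fatty acid synthesis genes 1 rose and 3 fell, with a median of -1.0 that was -0.29 without replicate 2 at 2 h and -0.25 without replicate 2 of both times. The number that fell was 0 without replicate 2 at 2 h, 7 without replicate 1 or 3 at 2 h, and 0, 1 and 0 without replicate 1, 2 and 3 at 24 h. Fasn, fatty acid synthase, was at 10.86, 16.05 and 10.80 at 2 h and at 9.23, 9.63 and 9.31 at 24 h, and its difference of -3.18 ± 1.04 (adjusted p = 0.0418) became -1.44 (adjusted p = 0.383) without replicate 2 at 2 h, and it was not called without any 1 of the 24 h arrays either. Acaca (9.93, 14.08 and 10.08 at 2 h) and Thrsp (8.03, 12.42 and 8.52 at 2 h), which also serve fat synthesis, had the same high array, in which the fat markers were highest too. Without that array none of the 14 genes was called. Nor were the single oxidative phosphorylation gene that fell, Cycs (-2.00 ± 0.58), the 2 citric acid cycle genes that fell or the proteasome gene Psmd12 called without it, and 1 glycolysis gene fell in place of 4 and 1 cholesterol gene in place of 2. Without replicate 2 of both times no cholesterol gene fell and 5 oxidative phosphorylation genes rose. No oxidative phosphorylation gene rose without replicate 1 or 3 of either time.

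Of 20 early estrogen response genes of the uterus 3 rose and 7 fell, with Rgs2, a brake on G protein signals (2.36 ± 0.48), and the transcription factor Sox4 (1.13 ± 0.30) higher and the glycosyltransferase B4galt5 lower (-2.01 ± 0.35). Without replicate 2 of either time 1 rose, and without replicate 2 of both times 1 rose and 2 fell. Of 20 late estrogen response genes 1 fell (all genes 6.57%), the peptidylarginine deiminase Padi1 (-1.24 ± 0.36). Of 25 interferon response genes 1 rose (all genes 7.94%), Ifit2 (1.27 ± 0.36). Neither Padi1 nor Ifit2 was called without replicate 2 at 2 h.

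The largest falls also held a pair of taste receptor genes. Tas2r135 was at 9.65, 10.06 and 9.42 at 2 h and at 5.53, 6.11 and 5.82 at 24 h, at the floor, a fall of at least 13.7-fold (adjusted p = 4.86e-05). Tas2r143 was at 9.51, 9.49 and 9.42 and at 6.13, 6.04 and 5.66 (-3.53 ± 0.56, adjusted p = 0.000122). The arrays of each time lay close together. Looked at after these values were seen, Zyx, Epha1 and Tas2r126, which neighbour them in the RefSeq annotation, also fell. The focal adhesion gene Zyx differed by -1.21 ± 0.17 (adjusted p = 4.62e-05), the ephrin receptor gene Epha1 by -1.36 ± 0.18 (adjusted p = 2.45e-05) and Tas2r126 by -1.49 ± 0.36 (adjusted p = 0.00542). Whether the arrays distinguish transcripts of overlapping or neighbouring genes here was not tested.

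The same times after IGF1 in the KO uterus were compared next, to ask whether the change with time needs the intact estrogen receptor alpha gene. In the KO, 2707 genes were called (8.98%), 1711 higher (5.68%) and 996 lower (3.30%). At least 2-fold, 1.75% of all genes were higher and 0.876% lower. No array is shared between the comparisons. Of the 671 genes that rose at least 2-fold in WT, 634 were higher at 24 h in the KO (94.5%) and 330 were called higher (49.2%), with none called lower and a median of 0.81 against 1.25 in WT. Of the 552 that fell, 523 were lower in the KO (94.7%), 245 were called lower (44.4%) and 4 were called higher, with a median of -0.68 against -1.35. WT genes were chosen for size, which raises the WT medians. Of the 790 genes called at least 2-fold in the KO, 449 were called in the same direction in WT (56.8%), and over all genes 65.6% had the same sign.

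Immediate early factors fell in the KO as in WT, with 19 of 27 called lower and none higher, and 9 of 16 MAP kinase feedback genes fell. Thbs1 (-3.29), Tnfrsf12a (-3.05) and Egr1 (-3.35) were among the genes that fell in the KO. Mitosis genes rose in the KO too, 19 of 37, and replication genes 23 of 40 with 1 lower. In the KO 6 of 31 ribosome biogenesis genes fell, and the test of the genotype difference given below called none of the 31. In the FoxO list 1 of 28 genes rose in the KO, Sesn3 (2.51), and 3 fell, with a median of -0.07. Over all genes 5.68% rose and 3.30% fell in the KO. Fbxo32 differed by 1.14 ± 0.81 in the KO (adjusted p = 0.497), and Irs2 by -0.95.

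The test of the genotype difference itself, the change in the KO minus the change in WT, called 19 genes (0.0630%), 11 with a more positive (0.0365%) and 8 with a more negative (0.0265%) change in the KO. No FoxO list member was among them. On simulated data this test recovered 4% of interactions of 0.5 on the log2 scale, 50% of 1, 80% of 1.5 and 88% of 2. A low count therefore does not show that the changes were alike in the 2 genotypes. For Fbxo32 that interaction was -3.42 ± 1.14 (adjusted p = 0.315), so its smaller difference in the KO was not established. Among the 19, Spon2, a secreted matrix protein, was at 9.29, 8.42 and 9.28 at 2 h and at 6.61, 6.42 and 6.36 at 24 h in WT. It fell in WT (-2.53 ± 0.21) and differed by -0.25 ± 0.21 in the KO, an interaction of 2.28 ± 0.29 (adjusted p = 0.000947). Gna14, a G protein alpha subunit, was at 9.72, 9.44 and 9.73 and at 8.25, 7.94 and 8.58 in WT (-1.37 ± 0.17) and rose by 0.66 ± 0.17 in the KO (interaction 2.04 ± 0.24, adjusted p = 0.000297).

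Creb3l1, an ER-bound factor for secretory and collagen genes (WT -2.21, KO -0.12), Aldh1a2, the retinoic acid synthesis enzyme of uterine stroma (WT -1.28, KO 1.0), the secreted protein gene Scube1 (WT -1.53, KO 1.51) and the noradrenaline transporter gene Slc6a2 (WT -1.42, KO 1.5) also had interactions above 0. The Wnt inhibitor Nkd2 (WT -1.69, KO -0.09) was in the same direction. Fibin (WT 1.41, KO -0.23), Tmem196 (WT 1.93, KO 0.37), Il1rl2, the interleukin 36 receptor (WT 0.70, KO -0.71), and the fibroblast protease Fap (WT 0.92, KO -0.14) had interactions below 0. The number called was 0 when the fit held only the groups compared, 2 without replicate 2 of WT IGF1 at 24 h, 3 without replicate 3 of WT IGF1 at 2 h, 4 without either replicate 1 or replicate 3 of the KO at 24 h, 79 without replicate 2 and 137 without replicate 1 of the KO at 2 h, so it rests on single arrays.

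**Figure D5:**
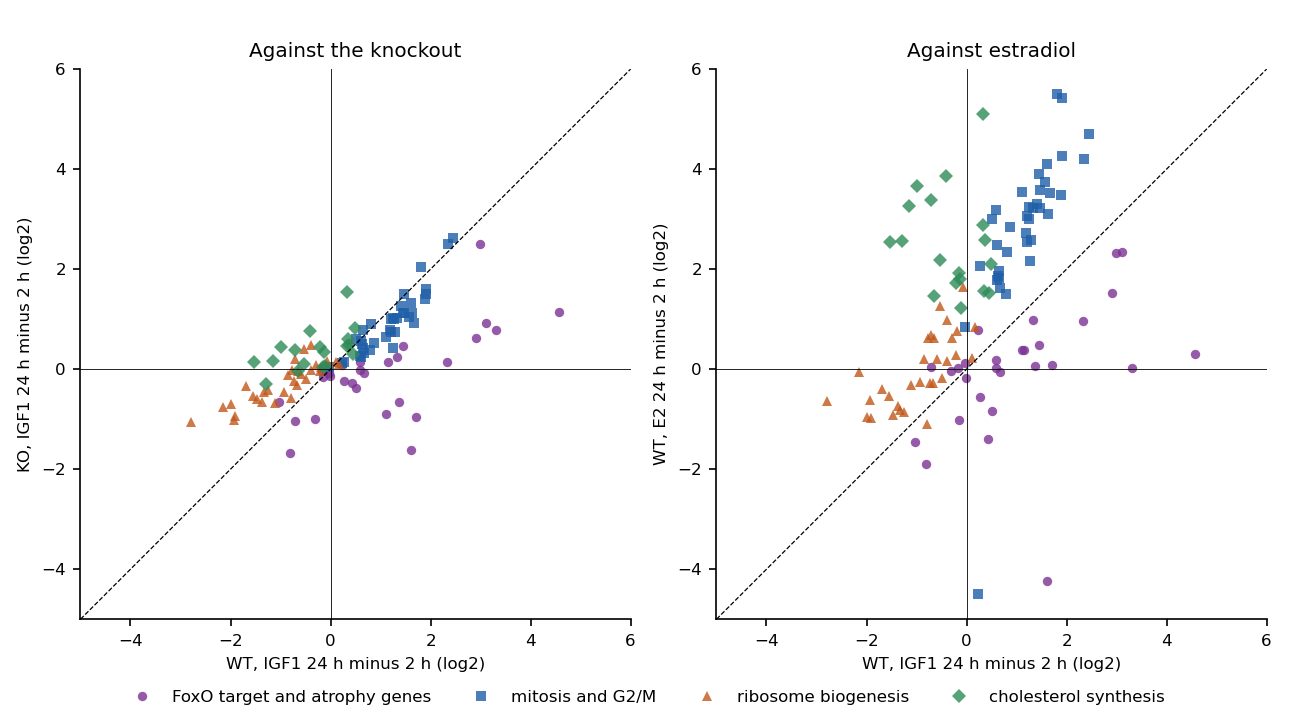
Difference of 24 h minus 2 h (log2) after IGF1 in WT uterus (horizontal axes) against the same difference after IGF1 in the KO (left) and after E2 in WT (right, vertical axes), for the genes of 4 lists; each point is 1 gene and the dashed line marks equality. FoxO genes such as Fbxo32 (WT IGF1 4.56, KO 1.14, E2 0.31) lie below the line, and mitosis genes lie above it for E2 (list medians 1.24 and 3.07).

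In the WT uterus after E2, the steroid that raises uterine IGF1, the same 2 times followed 1 injection and not 3. The agent and the schedule therefore cannot be told apart. There 8265 genes were called (27.4%), 5116 higher (17.0%) and 3149 lower (10.4%), and at least 2-fold 7.30% of all genes were higher and 3.60% lower. Of the 671 genes that rose at least 2-fold after IGF1, 488 were called higher after E2 (72.7%) and 12 lower, and of the 552 that fell, 282 were called lower (51.1%) and 20 higher. Of the 3286 genes called at least 2-fold after E2, 1178 were called in the same direction after IGF1 (35.8%). The difference between the 2 changes was called for 2960 genes (9.82%), 2067 with a more positive change after E2 (6.86%) and 893 with a more negative one (2.96%).

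Division genes rose further after E2. Of the 37 mitosis genes, 36 rose and 1 fell after E2, with a median of 3.07, and 32 had a more positive change than after IGF1 by the test of the difference. For Ccnb2 the change was 5.43 after E2 and 1.91 after IGF1. Of the 40 replication genes 36 rose after E2, and 24 had a more positive change. Cholesterol synthesis genes differed throughout the list, since all 18 rose after E2 (median 2.37) and all 18 had a more positive change than after IGF1, where 1 rose and 2 fell.

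Protein synthesis genes also differed. In the ribosome biogenesis list 9 genes rose and 7 fell after E2, and 14 of 31 had a more positive change than after IGF1, as did 7 of 15 initiation factors, 14 of 17 tRNA synthetases, 11 of 20 ATF4 genes and 10 of 20 ER genes. Oxidative phosphorylation (25 of 30) and proteasome genes (25 of 30) rose after E2, and 15 of 20 late estrogen response genes rose and 2 fell. By the test of the difference, fewer had a more positive change than after IGF1. These were 7 of 30 oxidative phosphorylation, 14 of 30 proteasome and 11 of 20 late estrogen response genes. A more negative change was called for 2 of the late estrogen response genes. Immediate early factors fell after both, 22 of 27 after E2. For Fos the fall after E2 was deeper (-3.82 against -1.32), and for Myc there was 0.15 after E2 against -1.19 after IGF1, and both of these differences were called.

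In the FoxO list of 28 genes 4 rose and 6 fell after E2, beside 17.0% of all genes that rose and 10.4% that fell. A more negative change than after IGF1 was called for 6 of the 28, and for 2.96% of all genes. Fbxo32 was at a mean of 12.48 at 2 h and 12.79 at 24 h after E2, a difference of 0.31 ± 0.81, so that the change after E2 minus the change after IGF1 was -4.24 ± 1.14 (adjusted p = 0.0169). The same difference was -3.27 for Klhl24 and -5.82 ± 0.99 for Pdk4 (adjusted p = 0.000346), which fell by 4.23 after E2. Sesn1 (2.34) and Sesn3 (2.32) rose after E2 as after IGF1. Igfbp5 rose after E2 by 4.30 and in the KO after IGF1 by 2.94, beside 3.01 in WT after IGF1. Thbs1 fell by 1.39 after E2 and 4.43 after IGF1, a difference of 3.04 that was called, as it was for Dusp6 (1.94) and Slc7a1 (1.99).

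Clock genes moved after E2 with 2 rising and 10 falling, and in the KO after IGF1 with 1 rising, Dbp (1.56), and 7 falling. Over all genes 17.0% rose and 10.4% fell after E2, and 5.68% rose and 3.30% fell in the KO. Arntl fell in all 3 comparisons, by 2.13 in WT after IGF1, 1.01 in the KO after IGF1 and 1.40 after E2. The change after E2 was more negative than after IGF1 for Nr1d2 (-2.60), Rora (-3.01), Cry2 (-2.56), Per2 (-1.65) and Tef (-1.16), and more positive for Clock (0.79).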

How the data were processed

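Uterine RNA had been extracted with Trizol and RNeasy and labelled with the WT Plus kit, per the labels' protocols. The deposited values are log2 levels of 72688 probe sets, made by the authors; the labels and headers name no software, background correction, normalization or build. Of the probe sets, 30604 had 1 gene symbol in the platform annotation, 2146 several and 39938 none listed; 827 symbols were updated through Entrez, and for 355 of the 30142 genes the probe set of highest mean was used. The highest deposited value was 19.93, and 51 tested genes came within 0.5 of it on a WT IGF1 array, where differences may be compressed.

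One model of the means of all 10 groups was fitted to the 30 arrays with limma 3.58.1 in R 4.3.3 (20 residual and 3.66 prior degrees of freedom), with Benjamini-Hochberg adjustment over all genes and calls at 0.05. Where a group lay at or below its floor, the fold is taken against the floor and written "at least". Other software was the R package data.table (version 1.17.8), Python 3.11.15, pandas 2.3.3 and matplotlib 3.10.9.

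Named genes were the 15 largest rises and falls at least 2-fold without overlapping arrays, predicted and small RNA genes, receptor segments and olfactory receptors left out, the 6 largest per direction of each interaction, up to 4 per list, and Igf1, Igf1r, Insr, Irs2, Esr1, Pgr and Greb1; the FoxO, clock, IGF axis and immediate early lists were described more fully. The members and lists were chosen with earlier results of these data known. The fit was tested on simulated data for the comparison of 24 h with 2 h, fitting 30142 genes with 50 changed per size. It recovered 12% of changes of 0.5 on the log2 scale, 74% of 1, 92% of 1.5 and 94% of 2, with 3 false calls. Its noise was independent and normal with 1 spread per gene. Arrays that stand apart, such as replicate 2 at 2 h, were not simulated, so the false calls do not bear on them. Array counts limit the precision. Alternatives were other arrays in the fit, centring, quantile normalization, array weights, a filter on dim genes, averaged probe sets, a replicate block and leaving out each array, and, chosen after seeing the data, leaving out replicate 2 of both times.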

Additional observations from a re-analysis of the deposited data

Results flagged for a closer look

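The results below differ between groups by a test of the difference itself in limma, the interaction. The change from 2 h to 24 h after E2 differed from that after IGF1 in WT for 2960 genes. Among the genes that moved most after IGF1, the change after E2 minus the change after IGF1 (log2) was -4.24 for Fbxo32, -3.27 for Klhl24, -2.99 for Fam214a and -2.34 for Cir1, and it was 2.79 for H1f5, 3.04 for Thbs1, 1.99 for Slc7a1 and 1.94 for Dusp6. The same difference was largest in the positive direction for the small proline-rich genes Sprr2f (8.86), Sprr2b (8.86) and Sprr1a (7.56), which are close in sequence and may share probes, and for Adgrg7 (5.84), the carbonic anhydrase Car2 (5.51) and the stromal glycoprotein Cd248 (5.40). It was most negative for Pdk4 (-5.82), the placental growth factor Pgf (-5.52), Gadd45g (-5.06), Dennd2a (-4.93), Csrnp3 (-4.91) and Irak3 (-4.87). After IGF1 itself, the difference of 24 h minus 2 h was -2.68 for Cd248, -0.73 for Pgf, -0.71 for Gadd45g and 1.29 for Csrnp3, all called, and the other 8 of these 12 genes were not called.

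The change after IGF1 differed between the KO and WT for 19 genes. The KO change minus the WT change was 3.04 for Scube1, 2.92 for Slc6a2, 2.28 for Aldh1a2, 2.28 for Spon2, 2.08 for Creb3l1 and 2.04 for Gna14, and -1.63 for Fibin, -1.56 for Tmem196, -1.41 for Il1rl2, -1.06 for Fap, -1.0 for Zbtb7c and -0.92 for Ankrd28. Of these genes, 4 also differed between E2 and IGF1 in WT: Spon2 (3.27), Creb3l1 (4.40), Gna14 (1.79) and Il1rl2 (1.54). Both tests use the same WT IGF1 arrays, so they are not independent.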

How the results depend on the processing

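Of 152 named or marker genes called as fitted, 0 changed sign under an alternative; of 59 not called, 23 did, Igf1, Igf1r, Pgr and S100a8 among them. The medians of 17 of 53 lists changed sign, that of the IGF axis from 0.07 to -0.03 without replicate 2 of both times. Centring the arrays turned the share of calls that were higher from 54.7% to 44.3%. The counts called at least 2-fold stayed within 1.5 times. Leaving out each WT IGF1 array in turn gave 3040 to 3716 called genes, 1529 to 2050 higher and 1364 to 1666 lower. Without replicate 2 at 2 h 3040 were called (1582 higher), and without replicate 1 at 24 h 3060 (1529 higher). Array weights gave 6904 (3797 higher, 3107 lower). Leaving out WT vehicle replicate 1 and replicate 2 of the KO at 24 h after E2, which enter only the spread, gave 5295 (2915 higher, 2380 lower). Without replicate 2 of both times, a setting chosen after seeing the data, 2137 were called (1209 higher, 928 lower). The genotype interaction called 19 genes as fitted, 0 with only those 4 groups in the fit, 10 without vehicle arrays, 7 with arrays centred, 10 after quantile normalization, 40 with array weights and 6 without replicate 2 of both times; leaving out single arrays gave 2 to 137. The treatment interaction called 2960 as fitted, 5267 with only the compared groups, 5930 with array weights and 1732 without replicate 2 of both times. The cause of these moves was not tested. Same-numbered WT IGF1 arrays correlated at -0.05, 0.08 and 0.03 in their deviations from group means, and arrays of unlike number at -0.09 to 0.08. With 3 arrays a group, these values cannot exclude a pairing by replicate number. With the replicate number as a block 4331 genes were called (2381 higher, 1950 lower), 4226 of them shared with the main fit. Only 3 arrays a group limit the precision.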
